A study of Mus musculus with 6 samples.

Results

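MicroRNA genes were represented by 342 of the 34760 probe sets of a mouse whole-transcript expression array, measured in embryonic stem cells with and without knockdown of Trim71. A probe set was counted as a microRNA probe set when at least 1 of its annotated symbols began with Mir followed by a number or by let7. Of the 342, 305 carried 1 symbol and 37 carried several. The 305 held 300 distinct symbols: 298 of the probe sets named a microRNA gene and 7 a host transcript with a symbol ending in hg. Of the 37, 13 also named a protein-coding gene, 3 a snoRNA gene and 15 another noncoding or unmatched gene, and 6 named only microRNAs. The rule reads symbols alone and no measured value.

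Both groups were mouse embryonic stem cells, 3 arrays each: control arrays labelled wild-type, and arrays labelled Trim71 KD. Knockdown cells received 3 siRNAs against Trim71 with the lipid reagent Dharmafect1 and were harvested after 72 h, per the labels' protocols. The protocols name a non-targeting siRNA, and the series title calls the controls parental, so the labels do not settle whether the control arrays hold siRNA-treated cells. The labels name no strain or line and do not say whether the 3 arrays of a group came from separate cultures. P-values then describe the spread among these arrays alone, and that spread may be technical.

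A microRNA gene is transcribed as a long primary transcript, often inside a host gene. The nuclease Drosha cuts out a hairpin, Dicer cuts the hairpin to a short duplex, and 1 strand guides Argonaute to messenger RNAs that pair with its seed. The miR-290 to 295 cluster is abundant in mouse embryonic stem cells, whereas let-7 matures only as cells differentiate, because Lin28 proteins block its processing. Trim71 (Lin41) is an RNA-binding protein of early embryos and itself a classical let-7 target. The kit amplified total RNA by a whole-transcript method, so a probe set can read primary transcripts, host transcripts and hairpins, and a dim signal may be background. It does not report the mature microRNA.

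The mature strands of the named clusters are shown first because their seeds define the families described here. They are RefSeq sequences on the mouse build GRCm38.p6, written 5′ to 3′ with the seed (bases 2 to 8) in capitals.
miR-291a-3p: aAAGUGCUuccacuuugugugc
miR-294-3p: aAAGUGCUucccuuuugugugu
miR-295-3p: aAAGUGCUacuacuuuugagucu
miR-302b-3p: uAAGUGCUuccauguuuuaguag
miR-302d-3p: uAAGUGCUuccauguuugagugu
miR-302c-3p: aAGUGCUUccauguuucagugg
miR-367-3p: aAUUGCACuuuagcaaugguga
miR-92a-3p: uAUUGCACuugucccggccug
miR-17-5p: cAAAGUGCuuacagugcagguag
miR-20a-5p: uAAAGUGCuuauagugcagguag
miR-18a-5p: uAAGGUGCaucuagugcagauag
miR-19a-3p: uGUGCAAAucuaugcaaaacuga
miR-19b-3p: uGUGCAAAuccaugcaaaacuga
let-7a-5p: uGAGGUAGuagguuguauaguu
let-7e-5p: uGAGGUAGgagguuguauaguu
let-7i-5p: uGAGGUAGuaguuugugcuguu
miR-98-5p: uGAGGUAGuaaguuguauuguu
The first 3 strands, of the miR-290 to 295 cluster on chromosome 7, share their seed with miR-302b and miR-302d. miR-367 shares its seed with miR-92a of the miR-17-92 cluster, and miR-98 shares the let-7 seed. No probe set of the table carried a symbol of the miR-290 to 295 cluster, so that cluster was not analysed here.

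The knockdown itself was read from Trim71. The control arrays read 10.48, 10.50 and 10.51 on the log2 scale, and the knockdown arrays 9.00, 8.95 and 8.98. The groups did not overlap, and the remaining signal was 34.9% of the control level. Trim71 fell by 1.52 on the log2 scale (standard error 0.045), and limma gave an adjusted p of 0.00103 (Benjamini-Hochberg over all 34760 probe sets). A two-sided exact permutation test gave p = 0.1, and 3 against 3 arrays cannot go lower. Array medians lay between 6.26 and 6.31. Knockdown array 3 stood apart, with an upper quartile of 8.42 against 8.32 to 8.35 elsewhere. Its root mean square deviation from the group mean over the microRNA probe sets was 0.156, against 0.0812 to 0.122 on the other arrays.

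Most microRNA probe sets were dim. Their median log2 signal over the 6 arrays was 4.86, with 4.76 for those with 1 symbol and 5.52 for those with several, and the median of the whole table was 6.26. Because signals of different probe sets also depend on probe sequence, levels here are array signals and not amounts of transcript. As a reference for low signal served the 1208 probe sets of olfactory and vomeronasal receptors, genes that are largely silent in these cells. The 95th percentile of the receptors was 5.34. Above it lay 121 of the 305 probe sets with 1 symbol (39.7%), 19 of the 37 with several (51.4%) and 64.5% of all probe sets.

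**Figure D1:**
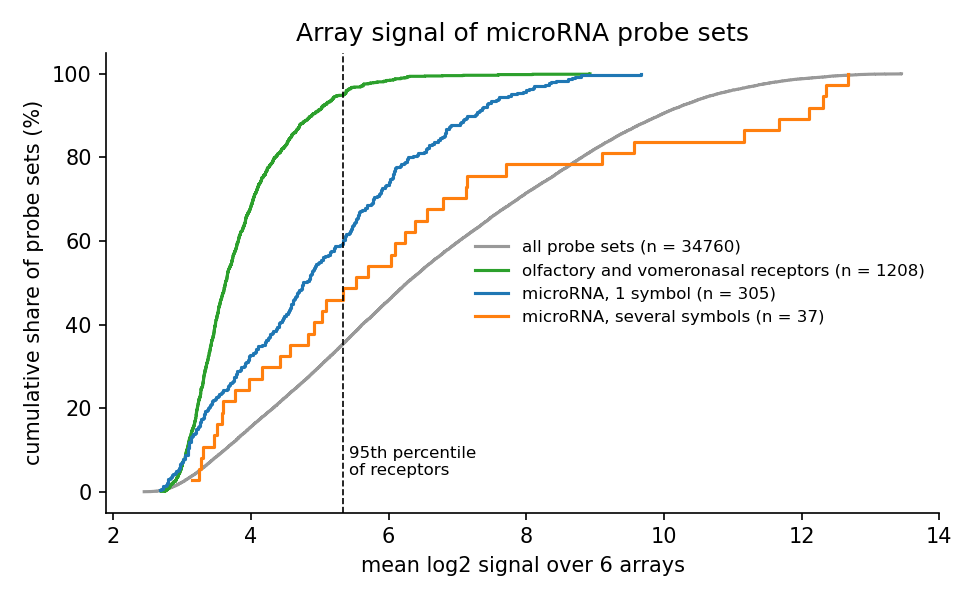
Cumulative share of probe sets (%) against the mean log2 signal over 6 arrays, for all 34760 probe sets, 1208 receptor probe sets, 305 microRNA probe sets with 1 symbol and 37 with several; the dashed line is the receptors' 95th percentile, 5.34. The 1-symbol curve runs between the receptors and the whole table, and the several-symbol curve reaches the brightest signals.

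The brightest probe sets with several symbols carried the name of an abundant protein-coding gene. Of the 13 with such a gene, 11 lay above the receptor percentile, and their median was 9.10. The probe sets shared with Ftl1 (ferritin light chain) and Mir692 reached 12.67, and that shared with Eef1a1 (a translation elongation factor) and Mir703 averaged 11.67. None of the 6 probe sets that named only microRNAs lay above it. A signal under several symbols cannot be assigned to the microRNA. Among probe sets with 1 symbol, Mir6516 (9.67), Mir341 (8.79), Mir598 (8.70), Mir7-1 (8.66) and Mir692-1 (8.61) had the highest array signals, which is not an order of transcript amounts. Mir341 lies in the imprinted Dlk1-Dio3 region.

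Signal followed the base composition of the hairpin. A RefSeq hairpin of 61 to 112 bases was found for 260 of the 305 probe sets with 1 symbol. Split into 4 groups by content of G and C, the lowest (28.4 to 42.4%) had 8 of 65 above the receptor percentile, with a median of 3.27. The highest (53.8 to 69.2%) had 55 of 64, with a median of 6.28. Pearson's r between signal and content was 0.64 and Spearman's rho 0.65 across these 260 probe sets, which share the 6 arrays. It is a description across genes, and the part of base composition in the levels below was not tested.

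**Figure D2:**
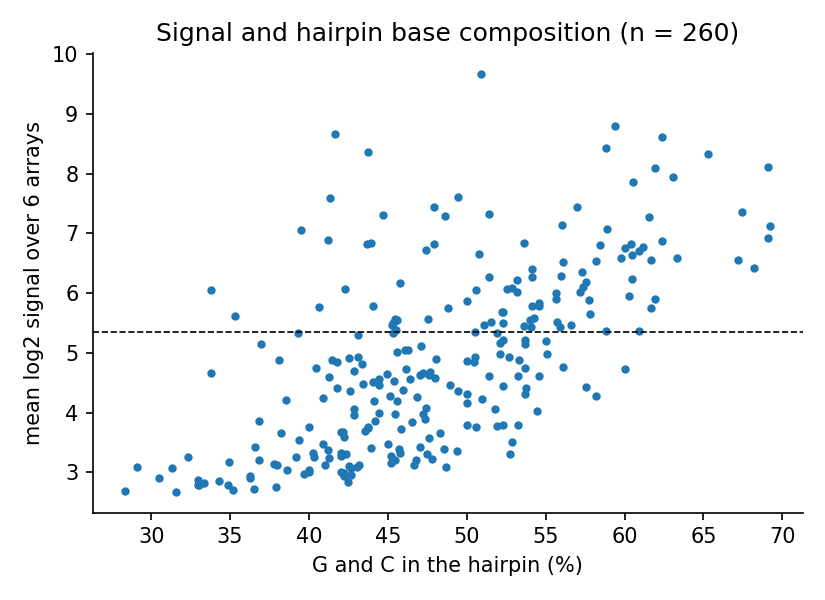
Mean log2 signal over 6 arrays against the percentage of G and C in the RefSeq hairpin, 1 point for each of 260 microRNA probe sets with 1 symbol; the dashed line is the receptors' 95th percentile. Points rise from left to right, with 8 of 65 above the line in the lowest of 4 groups by content and 55 of 64 in the highest.

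No microRNA probe set was called after Trim71 knockdown: 0 of 305 with 1 symbol and 0 of 37 with several passed an adjusted p under 0.05 in limma, where 1.15% of all probe sets did (400 of 34760). At an unadjusted p under 0.05, 22 of the 342 passed (15 higher and 7 lower), or 6.43%, against 13.9% of all probe sets. The 3 control values and the 3 knockdown values did not overlap for 34 of the 342 (9.94%), against 21% of all. Called shares followed signal. Of all probe sets not above the receptor percentile 0.154% were called, of those from there to 8 1.36%, and of those above 8 2.13%, and these bands held 184, 109 and 12 microRNA probe sets with 1 symbol and 18, 11 and 8 with several.

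The shifts were small. The median log2 fold change was 0.01 for the microRNA probe sets and for the whole table, and the range was -0.52 to 0.37. It was positive for 184 and negative for 158 of the 342. For 331 of them the 95% confidence interval lay within 1.5-fold in either direction, and for all 342 within 2-fold. The fit thus bounds the change of array signal, not of mature microRNA. Within 1.5-fold also lay 30426 of all 34760 probe sets and 1184 of the 1208 receptor probe sets. A narrow interval therefore does not show that a transcript was read. The 400 calls over all probe sets rest on all 6 arrays: without control array 1, 2 or 3 they were 3, 1 and 2, without knockdown array 1 or 2 they were 1 each, and without knockdown array 3 they were 93. No microRNA probe set was called in any of these 6 fits. The direction of small shifts depends on scaling, so counts by direction were also taken with 2 scaling alternatives, the arrays centred on their medians and quantile normalization repeated. Centring moved the median of all probe sets to -0.02.

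**Figure D3:**
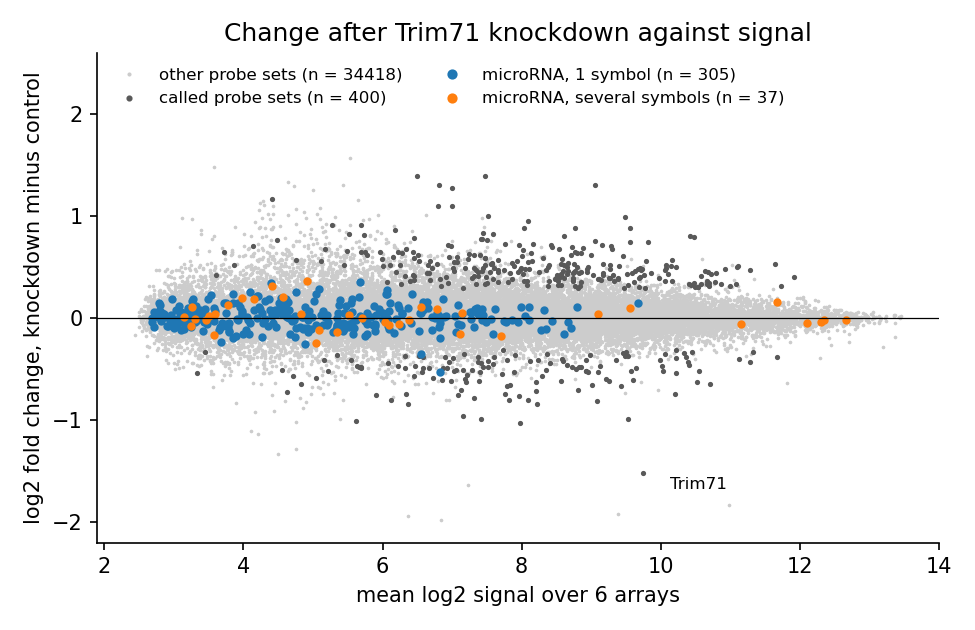
Log2 fold change (knockdown minus control) against mean log2 signal over 6 arrays for all 34760 probe sets; dark grey points are the 400 called ones, blue and orange points the 305 and 37 microRNA probe sets. The microRNA points lie between -0.52 and 0.37 and none is called, and Trim71 stands at -1.52.

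All 5 probe sets of the cluster of miR-302 and miR-367 lay at the dim end, between 3.08 and 3.54, and none was above the receptor percentile. The hairpins sit within the span of Larp7 on the opposite strand, from Mir302b at chr3:127545228-127545301 to Mir367 at chr3:127545733-127545807, both on the plus strand, with 39.2 to 47.1% G and C. Mir302d read 3.49, 3.50 and 3.29 in control and 3.60, 3.67 and 3.68 in knockdown arrays. Its knockdown values all lay above its control values, and the log2 difference was 0.22 (standard error 0.073), which did not pass in limma (adjusted p 0.245). Mir367 read 3.02, 2.96 and 3.08 against 3.11, 3.09 and 3.22, also without overlap. Its difference was 0.12 (adjusted p 0.462 in limma).

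The other miR-302 members overlapped between groups. Mir302b read 3.23, 3.13 and 3.16 against 3.21, 3.34 and 3.48. Mir302a read 3.31, 3.11 and 3.12 against 3.37, 3.23 and 3.49. Mir302c differed by 0.07. All 5 differences were positive, also under both scaling alternatives and without any 1 array, but 0 of 5 passed the test. Their median was 0.17, against 0.14 after median centring, 0.11 with array weights and 0.10 without knockdown array 3. Their signals are in the range of the receptors, and no change of the cluster's transcript was detectable there.

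The miR-17-92 cluster, an oncogenic polycistron in the transcript Mir17hg on chromosome 14, lay above the receptor percentile in all 7 of its probe sets, with means from 5.47 (Mir17) to 8.36 (Mir18). The hairpins run from Mir17 at chr14:115043671-115043754 to Mir92-1 at chr14:115044427-115044506 on the plus strand. Mir19b-1 read 6.89, 6.97 and 6.91 in control and 6.70, 6.64 and 6.86 in knockdown arrays. Every knockdown value was below every control value, and the difference was -0.19 with a standard error of 0.070 (adjusted p 0.294 in limma). Mir18 read 8.44, 8.55 and 8.23 against 8.32, 8.19 and 8.40, a difference of -0.10.

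Mir20a spread widely in the knockdown, at 5.78, 6.02 and 6.48 against 6.29, 6.25 and 6.17 in control, and differed by -0.14. The remaining 4 probe sets, Mir17hg (-0.04), Mir19a (-0.04), Mir17 (-0.07) and the probe set shared by Mir92-1 and Mir17hg (-0.18), overlapped between groups. All 7 differences were negative, also under both scaling alternatives. Their median was -0.10, against -0.04 without control array 2, -0.05 without knockdown array 2 and -0.19 with array weights. Without control array 1 or 2 or knockdown array 1 or 2, 6 of 7 were, and 0 of 7 passed the test. These probe sets read parts of 1 transcript, so they are not independent of each other.

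Its paralogous clusters gave no call either. Of the miR-106a-363 cluster on the X chromosome, all 5 differences were negative, from -0.06 to -0.25, though 4 of 5 without control array 2 and 3 of 5 without knockdown array 1. Mir19b-2 was the only one without overlap, at 4.92, 5.21 and 4.92 against 4.79, 4.65 and 4.85 (adjusted p 0.337 in limma). Of the miR-106b-25 cluster, which lies in the replication gene Mcm7, Mir106b differed by 0.10, Mir93 by -0.01 and Mir25 by -0.04. None of these 8 passed the test.

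The let-7 family was read by 12 probe sets, 10 with 1 symbol and 2 shared with the noncoding gene Lncppara. Of these, 5 lay above the receptor percentile, and Mirlet7d (mean 7.31) and Mirlet7e (6.87) were among them. Mirlet7e, at chr17:17830352-17830444, read 6.92, 6.69 and 6.73 in control and 6.85, 7.06 and 6.98 in knockdown arrays. The groups overlapped, and the difference of 0.18 with a standard error of 0.088 did not pass the test (adjusted p 0.428 in limma). Mirlet7d read 7.35, 7.39 and 7.31 against 7.16, 7.27 and 7.37, a difference of -0.08.

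Mirlet7a-2, near the receptor levels, read 3.64, 3.65 and 3.65 against 3.78, 3.69 and 3.93. Its groups did not overlap, the difference was 0.15, and its adjusted p of 0.425 in limma was the lowest of the family. Mirlet7c-1 also did not overlap and differed by 0.08. Mirlet7g spread over 4.86 to 5.57 in the knockdown, where array 3 was highest. Over the family 4 differences were positive and 8 negative, from -0.09 to 0.18, but 6 and 6 without control array 1, control array 3 or knockdown array 3. None of the 12 probe sets was called in either direction.

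**Figure D4:**
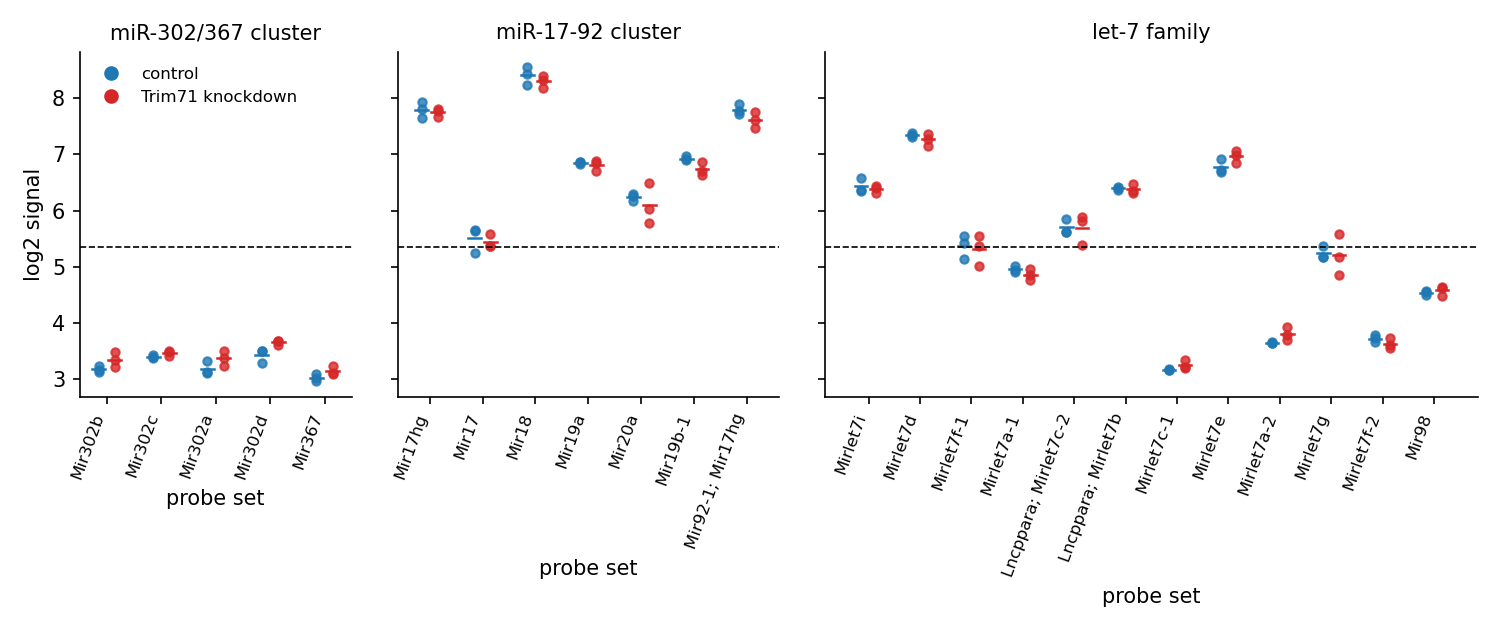
Log2 signal of the 5 miR-302 and miR-367, 7 miR-17-92 and 12 let-7 probe sets, 1 point for each of 3 control (blue) and 3 knockdown (red) arrays, bars at the group means; the dashed line is the receptors' 95th percentile. The miR-302 and miR-367 probe sets lie below the line, miR-17-92 above it, and the let-7 probe sets on both sides, with overlapping groups in most.

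**Figure D5:**
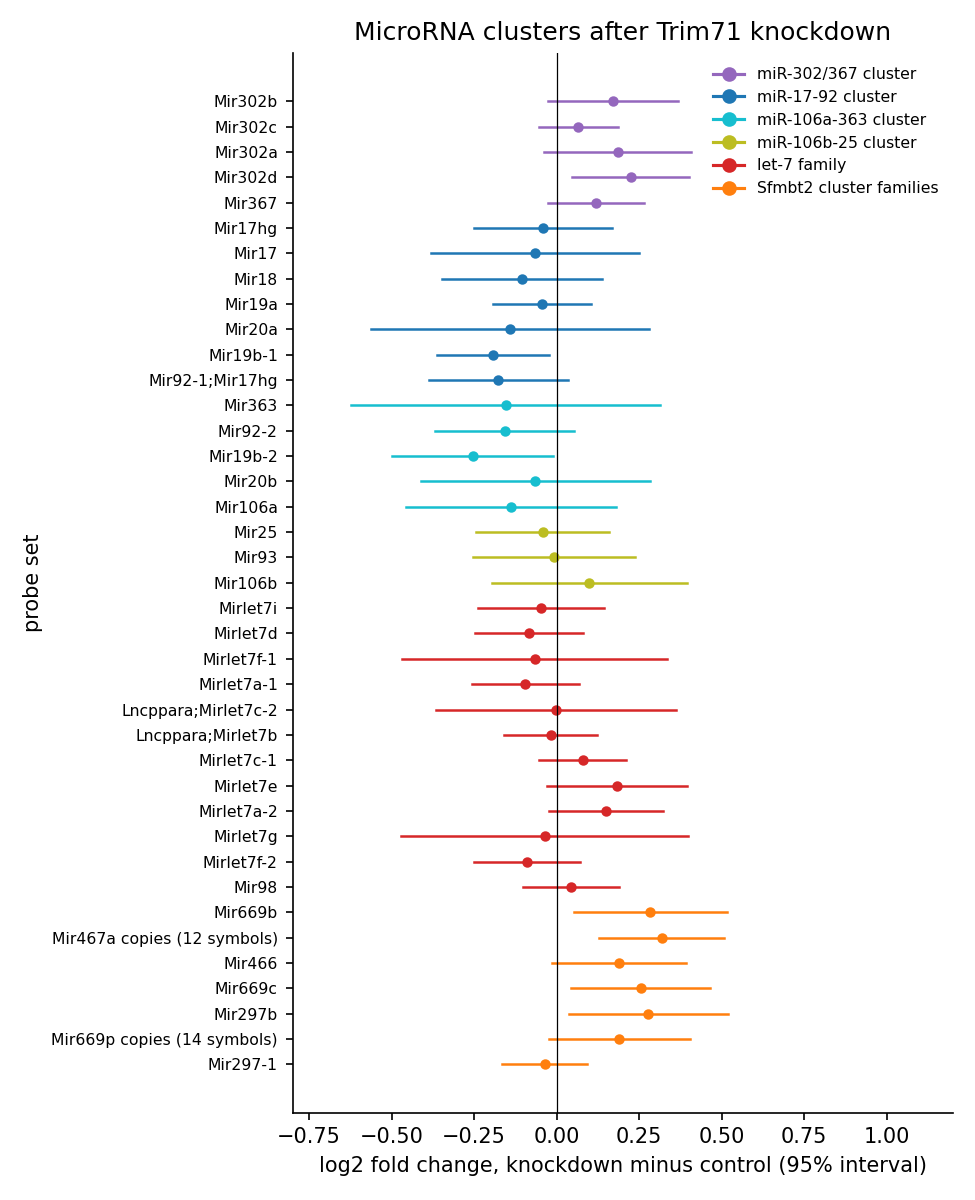
Log2 fold change with its 95% confidence interval (limma) for 39 probe sets of 6 clusters and families, coloured by family. All 5 miR-302 and miR-367 points are positive, all 7 miR-17-92 and all 5 miR-106a-363 points negative, and none was called.

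The probe sets nearest to a call were outside these clusters. The probe set shared by Mir27b and its host Aopep (an aminopeptidase gene) read 4.68, 4.78 and 4.72 in control and 4.99, 5.12 and 5.17 in knockdown arrays. The groups did not overlap, and the difference of 0.37 with a standard error of 0.065 had an adjusted p of 0.0646 in limma. The mean signal of 4.91 was not above the receptor percentile. The probe sets for the other members of that cluster, Mir23b (0.11) and Mir24-1 (-0.02), both shared with Aopep, and Aopep itself (0.09), chosen after its value was seen, differed less. The sequence of the mature strand, from chr13:63300760-63300780, is shown because it came closest.
miR-27b-3p: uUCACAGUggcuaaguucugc
With array weights in the fit, this probe set passed at an adjusted p of 0.0303. Its adjusted p over the other alternatives ran up to 0.243.

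Mir135b showed the largest difference downwards. It read 7.06, 7.25 and 6.96 against 6.69, 6.35 and 6.67, without overlap. The difference of -0.52 with a standard error of 0.120 gave an adjusted p of 0.116 in limma. It passed when fewer probe sets were tested, at 0.0452 among the brighter ones and 0.0383 among 19937 genes with 1 symbol (of which 5.53% were called), and at 0.0466 with array weights; without any 1 array it ran from 0.151 to 0.314. Lemd1, the gene around it, chosen after its value was seen, differed by 0.02. The mean of Lemd1, 4.29, was not above the receptor percentile, so its signal may not show a change of its transcript. Next by moderated statistic, not by size, Mir672 read 3.82, 3.79 and 3.76 against 3.52, 3.50 and 3.65, a difference of -0.23 (adjusted p 0.140 in limma). Its mean of 3.67 was not above the receptor percentile, and with array weights Mir672 passed at an adjusted p of 0.039 in limma.

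Of the other named differences, Mir34a, a p53-induced microRNA, read 4.03, 4.17 and 4.07 against 4.29, 4.30 and 4.33. The difference was 0.22, and its adjusted p was 0.149 in limma. Mir34b differed by 0.15 and Mir34c by -0.03. Mir130b differed by 0.26 and Mir181b-1 by 0.19, and Mir16-1 by -0.15. None of them passed, and among them only Mir16-1 lay above the receptor percentile.

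The Sfmbt2 cluster holds many near-identical copies of miR-466, miR-467, miR-669 and miR-297 in an intron of the Polycomb gene Sfmbt2. Copies outside that intron share these names, and reads of near-identical copies cannot be told apart on the array. Of its 7 probe sets, 6 were not above the receptor percentile. Of the 7, 6 differed upwards, also under both scaling alternatives and without any 1 array. The median was 0.26. The set shared by 12 miR-467 symbols read 4.26, 4.37 and 4.14 against 4.66, 4.53 and 4.54, a difference of 0.32 (adjusted p 0.132 in limma). Mir669c read 4.14, 3.89 and 3.88 against 4.16, 4.22 and 4.29, a difference of 0.26. Both were without overlap. Mir669b (0.28) and Mir297b (0.28) overlapped, and Mir297-1 differed by -0.04.

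Sfmbt2 itself, chosen after its value was seen, read 10.06, 10.10 and 9.98 against 10.29, 10.31 and 10.35. Its difference of 0.27 with a standard error of 0.052 had an adjusted p of 0.0796 in limma and did not pass. It passed in 5 of the alternatives, among them array weights (0.0441) and the fit restricted to brighter probe sets (0.0213).

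The imprinted Dlk1-Dio3 region, whose noncoding RNAs Meg3 and Rian carry a large microRNA cluster, gave 42 probe sets. Of these, 22 lay above the receptor percentile, 24 differed upwards and 18 downwards, with a median of 0.01. With the arrays centred on their medians, the split was 18 upwards and 24 downwards, with a median of -0.02. The largest difference was that of Mir323, at 5.60, 5.51 and 5.40 against 5.68, 5.69 and 6.21, or 0.35 (adjusted p 0.384), where knockdown array 3 was highest. Mir341 read 8.74, 8.65 and 8.80 against 8.84, 8.87 and 8.82, without overlap, a difference of 0.11. Meg3 differed by 0.08 and Rian by -0.19, both chosen after their values were seen.

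Lists of microRNAs typical of other cells gave no call either. The 12 neuronal probe sets split into 6 upwards and 6 downwards (3 and 9 after median centring). The 8 muscle probe sets, none above the receptor percentile, split into 5 and 3 (4 and 4). All 9 of the blood cell list differed upwards (8 after centring, 7 without knockdown array 1), and 8 of the 9 were not above the receptor percentile. Their median was 0.07, against 0.04 after centring and 0.13 without knockdown array 3. The miR-200 family, of epithelia, had 4 of 5 upwards, but 1 of 5 after centring, and the family of miR-15 and miR-16 had 3 of 8 under either scaling. In the liver and pancreas list 7 of 8 differed upwards (6 after centring), with a median of 0.07. Mir375, the 1 that differed downwards before centring, read 6.75, 6.61 and 6.83 against 6.74, 6.57 and 5.82. Its difference of -0.35 came with a low knockdown array 3. Members that share a seed were counted too. On the deposited scale, 3 differed upwards and 3 downwards with the seed AUUGCAC, 3 and 2 with GUAAACA, and 3 and 6 with GAGGUAG. The counts were 3 and 1 with GGCAGUG and 1 and 5 with AAAGUGC. These counts moved with the fit. With AAAGUGC they were 4 and 2 without knockdown array 1, and 3 and 3 without control array 2. With GUAAACA they were 1 and 4 under both scaling alternatives, and with GAGGUAG 5 and 4 without control array 1. All 6 miR-181 genes (seed ACAUUCA) differed upwards and 5 of 6 with the seed AGCAGCA of miR-15 and miR-16 downwards, with the same counts under both scaling alternatives. Only 2 of the 6 miR-181 probe sets lay above the receptor percentile. Without knockdown array 1, 5 of 6 miR-181 genes differed upwards, and 4 of 6 with the seed AGCAGCA differed downwards without control array 2, knockdown array 2 or knockdown array 3.

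The host genes were compared with their microRNAs where RefSeq places the hairpin inside the gene on the same strand. This gave 103 pairs of 102 microRNAs and 81 hosts. Of the 81 hosts, 4 passed the test (4.94%), all higher, against 0.765% of all probe sets called higher. In either direction, 1.15% of all probe sets and 2.13% of those above 8 were called in the same fit. A separate fit of 19937 genes with 1 symbol called 5.53%, but the 4 hosts were called in the main fit, so these shares are unlike. The hosts' share was not tested and is not read as an excess. These 4 were not in the naming rule and were chosen after their values were seen. The log2 changes of microRNA and host had the same sign in 55 of 103 pairs, with a Pearson's r of 0.13 and a Spearman's rho of 0.13, a description across pairs that share the 6 arrays.

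Pank3, which encodes a pantothenate kinase, rose from 8.39, 8.37 and 8.37 to 9.09, 9.08 and 9.05, a difference of 0.70 (adjusted p 0.0136 in limma). Mir103-1 in its intron, at chr11:35782396-35782481, read 4.70, 4.63 and 4.70 against 4.80, 4.60 and 4.63. Its difference was -0.0034, with a 95% confidence interval of -0.17 to 0.16. Mir103-1 was not above the receptor percentile, so its signal may not show a change of its transcript. Igf2, the imprinted growth factor, rose from 7.49, 7.74 and 7.60 to 8.45, 8.58 and 8.66, or by 0.95 (adjusted p 0.0184), and Mir483 in it differed by 0.13 (-0.11 to 0.36). These 2 mature strands are shown because their hosts rose.
miR-103-3p: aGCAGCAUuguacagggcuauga
miR-483-3p: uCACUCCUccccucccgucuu

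Cep170, a centrosomal protein gene, rose by 0.43 (adjusted p 0.0379) and Mir350, also not above the receptor percentile, differed by -0.15 (-0.45 to 0.15). Akt1s1, an inhibitor subunit of mTORC1, rose by 0.43 (adjusted p 0.0405), and the probe set shared by Mir707 and Akt1s1 differed by 0.09 (-0.12 to 0.30). These calls rest on all 6 arrays. Pank3 passed in 1 of the 6 fits without 1 array (without knockdown array 3, adjusted p 0.0378), and over all 6 its adjusted p ran up to 0.124. Igf2 (0.0530 to 0.124), Cep170 (0.0622 to 0.181) and Akt1s1 (0.0621 to 0.183) passed in none.

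Genes that make, use or answer to microRNAs were read as well. Of 27 measured microRNA processing and silencing genes, 0 rose and 1 fell, against 0.765% and 0.386% of all probe sets. The 1 was Trim71, the target of the siRNAs, so none of the others was called. Lin28a, which blocks let-7 processing, read 9.57, 9.54 and 9.58 against 9.29, 9.30 and 9.31, without overlap. Its difference of -0.26 had an adjusted p of 0.0573 in limma, and it passed in 7 of the alternatives (0.0124 to 0.0474). Lin28b differed by -0.24 and Tnrc6a, an Argonaute partner, by 0.35. Trim32, a Trim71 relative, differed by 0.51 (adjusted p 0.0690 in limma). Neither was called in the main fit, but Trim32 (0.0178 to 0.0464) and Tnrc6a (0.0307 to 0.0392) passed in some of the alternatives.

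Of 19 measured let-7 target genes, 4 rose and 1 fell, which again was Trim71, against 0.765% of all probe sets called higher and 0.386% lower. These 19 were bright (7.70 to 11.38), and in either direction 2.13% of all probe sets above 8 were called. The list was chosen with earlier results of these data known, and whether its share is an excess was not tested. Ccnd2 (cyclin D2) rose from 10.12, 10.07 and 10.05 to 10.98, 10.81 and 10.84, or by 0.79 (adjusted p 0.0180). Thbs1 rose by 0.51, Mycn by 0.46 and Arid3a, not in the naming rule and named here because it was 1 of 4, by 0.39. Over the 19, 12 differences were positive, with a median of 0.01, against 9 and -0.02 after median centring. Of 17 measured targets of the miR-290 to 295 and miR-302 seed, 0 rose and 1 fell, beside those same shares. It was Lefty1, a Nodal antagonist, from 8.17, 8.21 and 8.27 to 7.41, 7.32 and 7.52, or by 0.80 on the log2 scale (adjusted p 0.0180). Btg2 (0.39), Rhoc (-0.34) and Casp2 (-0.27) were not called but passed in some of the alternatives. Without 1 array, Ccnd2 (0.0487) and Lefty1 (0.0434) passed only without knockdown array 3, and Mycn and Thbs1 in none.

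Markers of the cells were read beside these values. All 10 embryonic stem cell markers were bright (9.78 to 12.96), with 0 called and 10 differences upwards (9 after centring), the largest 0.36 in Klf4. Of the 10, 6 had an unadjusted p under 0.05 in limma and 7 did not overlap between groups, against 13.9% and 21% of all probe sets. Klf4, Fgf4 and Zfp42 each passed in 5 of the alternatives. Of 10 feeder fibroblast markers 1 fell, Acta2, by 0.70 on the log2 scale, beside 0.386% of all probe sets called lower. The list's mean ran from 6.35 to 6.44 in control and 6.20 to 6.35 in knockdown arrays. In that list 3 differences were upwards and 7 downwards, but 6 and 4 with array weights or without knockdown array 3. After median centring they were 1 and 9. Tagln (-0.34) was not called but passed in several of the alternatives, among them array weights (adjusted p 0.0432 in limma). Of 7 neural markers, 4 differed upwards and 3 downwards, and 1 was called, Pax6, which fell by 0.76, beside that same 0.386%. Nes (0.27) passed among brighter probe sets (adjusted p 0.0453 in limma) and with 1 probe set per gene (0.0497). In the main fit 0 of 8 endoderm and 0 of 6 mesoderm markers passed, where 1.15% of all probe sets did. Whether the share called in any marker list differs from that was not tested. Without 1 array Acta2 passed in none of the 6 fits and Pax6 only without knockdown array 3 (0.0487). Their part in the microRNA values was not tested.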

How the data were processed

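The deposited table holds 1 log2 value per probe set and array; the authors made it with RMA and the affy package, per the submitters' processing notes, in versions not given in the sources used here. Background correction, quantile normalization and summarizing of probes are steps of RMA, so a change shared by most probe sets could not be seen. The values carry no detection call, and the number of arrays limits the precision.

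Symbols came from the platform annotation held by GEO, where names may be old: of 34760 probe sets, 21640 had 1 symbol, 1321 several and 11799 were unnamed here. A group term was fitted with limma 3.58.1 in R 4.3.3 to all 34760 (lmFit and eBayes, default settings), with Benjamini-Hochberg adjustment over all of them, and an adjusted p under 0.05 was called. Tables used Python 3.11.15, pandas 2.3.3 and matplotlib 3.10.9. Hairpins, mature strands and host spans came from RefSeq (GRCm38.p6).

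The rule for the microRNA probe sets and the gene lists were chosen with earlier results of these data known, although the rule itself uses symbols alone. Named were all members of the 4 clusters, the 5 largest moderated statistics in each direction, the 5 brightest with 1 symbol, up to 4 per list, their hosts and Trim71; others are said to be chosen after their values were seen.

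The fit was repeated with a block for the replicate number, without each array, and with brighter probe sets, 1 probe set per gene, a trended robust prior, array weights, repeated quantile normalization, median centring, no moderation and stricter thresholds. Same-numbered arrays did not deviate together.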

Additional observations from a re-analysis of the deposited data

How the results depend on the processing

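The count of 0 called microRNA probe sets with 1 symbol held in all alternatives except 3: it was 1 among brighter probe sets, 1 with 1 probe set per gene and 2 with array weights. For those with several symbols it was 0 except 1 with array weights, and for the 79 named by rule it was 1, 1 and 3 in those settings. The count over all probe sets varied more, from 400 to 1466 among brighter probe sets, 1103 with 1 probe set per gene, 1179 with a trended robust prior, 1249 with array weights, 849 after repeated quantile normalization, 207 without moderation, 3 at an adjusted p under 0.01 and 119 at 1.5-fold. Without 1 array it ranged from 1 to 93. Median centring called 418, 218 higher and 200 lower, against 266 and 134. It moved the median change of all probe sets from 0.01 to -0.02. With the replicate number as a block, limma called 0 probe sets (3867 had an unadjusted p under 0.05), and Trim71 had an adjusted p of 0.212. The change of Trim71, -1.52, cannot move under this block, which holds 1 control and 1 knockdown array per number. Deviations from the group means correlated at -0.07, -0.05 and -0.22 between control and knockdown arrays of the same number. Between arrays of different numbers the correlations ran from -0.19 to 0.23. Such values cannot show whether the arrays were paired, so the block is kept as an alternative only. Of 83 microRNA probe sets named, 21 changed sign in at least 1 of the 16 alternatives and 62 in none. Only leaving out an array, array weights, repeated quantile normalization and median centring can change a sign. The other alternatives keep the log2 change of the main fit. Low signal limits the miR-302, miR-367 and several let-7 values.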
